A study of Mus musculus with 10 samples.

Results

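CpG methylation was examined at 10 macrophage genes (Chil3, Arg1, Retnla, Mrc1, Marco, Mertk, Pparg, Csf1r, Cd68 and Adgre1) in lung DNA of 10 female BALB/c mice, bought at 8 weeks of age. The members were all windows of 1000 bp, placed every 500 bp, that overlapped a RefSeq span of these genes on GRCm38 or the 5 kb on either side of it. There were 80 such windows among the 446336 of the series, and 76 of them, among 421759, had at least 20 CpG calls in each mouse and were tested. A CpG call is a read of a cytosine in a CG dinucleotide, and the methylation level of a window is the percentage of its calls that were methylated.

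The 3 saline mice had been injected with saline only. The 3 OVA mice were sensitized to ovalbumin by injection into the peritoneum together with an aluminium adjuvant and then challenged with ovalbumin through the nose, a model of allergic airway inflammation. The 4 DSE-treated mice went through the same OVA induction and received an ethanol extract of Descurainia sophia seeds by mouth for 7 days (the labels call them Herb). Whole lung was used, so the share of each cell type in the tissue and the methylation within a cell type cannot be told apart here. The calls come from all cells of the lung, not from macrophages alone. Over all windows the mice had 306656737 to 410836272 calls, and over the member windows 59798 to 78694. Median calls per member window were 436.5 to 514.5 in DSE-treated mice and 357 to 399 in the others. Of all calls, 38.5 to 39.8% were methylated in DSE-treated mice and 35.5 to 37.3% in the others. The mean level per window was 51.7 to 52.8% in DSE-treated and 51.9 to 52.8% in OVA mice. How far such library differences enter the comparisons with DSE was not tested.

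Macrophages of the air spaces are long-lived phagocytes that clear surfactant, dust and dying cells, and their identity depends on the nuclear receptor encoded by Pparg. In allergic inflammation, the interleukins of T helper type 2 cells act through the transcription factor Stat6 and drive the alternatively activated state, known for arginase 1 (Arg1), the chitinase-like protein Ym1 (Chil3), Fizz1 (Retnla) and the mannose receptor CD206 (Mrc1). CpG methylation of promoters is often low where a gene is in use, whereas CpGs inside genes and between genes are mostly methylated. Promoters rich in CpGs, called CpG islands, are usually unmethylated whether or not the gene is in use.

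Of the 10 genes, 7 had deposited windows and 3 had none, namely Chil3, Retnla and Adgre1, the gene of the macrophage marker F4/80. Those 3 genes had the lowest CpG densities of the 10, with 3.93, 3.29 and 4.998 CpGs per kb over the gene and its flanks, beside 5.97 in Pparg and 16.7 in Cd68. Coverage of the rest was partial. The windows held 89.0% of the CpGs in the span of Cd68 but 27.6% in Pparg, 12.4% in Mertk, 11.8% in Marco, 11.7% in Arg1, 8.32% in Csf1r and 6.83% in Mrc1. CpG numbers here and below count the CpGs of the reference in a window. Some of them may have had no calls, so these shares are upper limits. None of the windows used here lay within 1000 bp of the start sites of Mrc1, Marco or Csf1r, so nothing is reported on those promoters. The tested windows held 2 to 82 CpGs with 22 to 7161 calls per mouse, and 5 of the 76 repeated the calls of the window before them, since all their calls lay in the 500 bp that both share.

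Calls were counted per window, so which CpGs of a window differed is not known. The stretches below lie in the windows that carried the differences described later, apart from Arg1. They are printed as the GRCm38 reference reads on the strand of the gene, with the CpGs, the only bases whose methylation was counted, in capitals. The first is the stretch of 300 bases with the most CpGs in the 500 bp shared by the called windows at exon 15 of Mrc1, and 71 of its bases are coding.
Mrc1, chr2:14294571-14294870, plus strand: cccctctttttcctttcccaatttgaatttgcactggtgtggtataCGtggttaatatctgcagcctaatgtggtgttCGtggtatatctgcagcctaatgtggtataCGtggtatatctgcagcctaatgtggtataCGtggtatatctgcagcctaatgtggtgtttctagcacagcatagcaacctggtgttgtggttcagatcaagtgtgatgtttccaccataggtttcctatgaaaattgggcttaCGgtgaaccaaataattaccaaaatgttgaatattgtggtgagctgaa
The stretch held 5 CpGs, most of them in an intronic repeat of which 27 bases recurred 3 times. Next is the fourth intron of Mertk, where the bases are those that the called window shares with the window before it, which was not called. There 300 of the 500 shared bases held 7 of their 11 CpGs.
Mertk, chr2:128739191-128739490, plus strand: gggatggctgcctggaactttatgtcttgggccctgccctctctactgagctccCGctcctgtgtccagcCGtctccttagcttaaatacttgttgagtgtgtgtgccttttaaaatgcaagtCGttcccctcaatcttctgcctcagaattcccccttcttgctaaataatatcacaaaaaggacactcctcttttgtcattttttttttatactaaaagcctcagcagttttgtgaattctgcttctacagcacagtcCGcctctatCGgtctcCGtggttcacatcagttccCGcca
Pparg is shown at 3 places. These are a part of intron 2 upstream of the start of the Pparg2 transcript, a part of intron 2 downstream of that start, and coding exon 6 with 200 coding bases in the print.
Pparg, chr6:115411546-115411845, plus strand: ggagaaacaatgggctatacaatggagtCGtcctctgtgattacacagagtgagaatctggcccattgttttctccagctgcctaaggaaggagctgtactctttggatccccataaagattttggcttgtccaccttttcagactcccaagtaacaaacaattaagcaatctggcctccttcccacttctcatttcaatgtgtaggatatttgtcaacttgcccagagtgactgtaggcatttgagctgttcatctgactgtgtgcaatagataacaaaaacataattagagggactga
Pparg, chr6:115434004-115434303, plus strand: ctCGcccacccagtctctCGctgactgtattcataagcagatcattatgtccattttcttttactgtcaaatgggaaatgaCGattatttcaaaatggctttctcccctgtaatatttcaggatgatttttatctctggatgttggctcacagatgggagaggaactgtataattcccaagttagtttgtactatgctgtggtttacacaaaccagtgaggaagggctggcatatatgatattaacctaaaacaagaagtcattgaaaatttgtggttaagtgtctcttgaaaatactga
Pparg, chr6:115463017-115463316, plus strand: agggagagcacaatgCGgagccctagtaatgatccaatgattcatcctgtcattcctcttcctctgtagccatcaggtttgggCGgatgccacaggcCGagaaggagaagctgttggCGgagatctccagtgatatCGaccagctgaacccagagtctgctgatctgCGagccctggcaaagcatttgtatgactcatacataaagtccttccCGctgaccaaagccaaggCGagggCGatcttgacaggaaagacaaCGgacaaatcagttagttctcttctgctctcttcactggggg
The first of these holds 1 of the 2 CpGs of its shared 500 bp, the next holds all 3, and the exonic stretch holds all 10. The sparse intronic pair therefore rests on very few CpGs, whereas the exon is dense. For Cd68, which encodes a glycoprotein of macrophage lysosomes, the 250 bases before the start site are given from the RefSeq promoter table (GRCm38.p6), since the called window covers them.
Cd68, chr11:69666171-69666420, minus strand: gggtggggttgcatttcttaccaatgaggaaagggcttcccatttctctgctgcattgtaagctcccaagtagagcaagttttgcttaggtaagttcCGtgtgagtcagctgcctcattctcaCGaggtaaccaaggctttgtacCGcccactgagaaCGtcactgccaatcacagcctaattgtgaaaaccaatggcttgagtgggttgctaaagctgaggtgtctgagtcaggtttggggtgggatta
This promoter held 4 CpGs.

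Promoter entries were found for 7 of the 10 genes (9 entries, of which 3 for Pparg); Arg1, Csf1r and Adgre1 had none. In the 250 bases before the start, Chil3 held 3 CpGs, Retnla 1, Mrc1 3, Marco 0 and Mertk 7, beside a median of 6 over all 32851 entries. The entries of Pparg held 38, 12 and 2. A STAT6 site, written as TTC and GAA with 4 bases between and thus the same on both strands, was found in Retnla alone among the 9 entries and in 5.85% of all entries. The PU.1 site GAGGAA, on either strand, occurred in Cd68, Marco, Retnla and an entry of Pparg 1 time each and in Mrc1 3 times, beside 23.3% of all entries with at least 1. The C/EBP site TTGCNNAA, on either strand, was found in Cd68, Retnla and the Pparg2 entry, beside 9.56% of all entries. These matches describe letters only.

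The first comparison asked whether the OVA-exposed mice, the OVA and DSE groups together, differed in mean level from the saline mice. The difference was judged against the spread between mice. Methylation rose in 6 member windows and fell in 5 of the 76, by limma on log2 ratios of methylated to unmethylated calls with an adjusted p under 0.05 over all 421759 windows. These windows formed 4 higher regions, in Arg1, Mertk and Pparg (2), and 3 lower regions, in Mrc1, Pparg and Cd68. The member shares, 7.89% higher and 6.58% lower, stand beside 5.51% and 3.21% of all windows. Pparg held 4 of the higher and 2 of the lower windows. Among them, chr6:115411501-115412500 (higher) and chr6:115434001-115435000 (lower) repeated the calls of the window before them, which raises both member shares. Setting the median of all windows to the same value in each mouse, which removes a general rise of 0.11 on the log2 scale, gave 6 higher and 8 lower windows, the 11 above included. Without saline mouse 2 a single window was called, in Mrc1, and 7 and 6 were called without saline mice 1 and 3.

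All 7 OVA-exposed mice lay above all 3 saline mice in 10 member windows (13.2%) and below them in 8 (10.5%), beside 9.53% and 4.72% of all windows. Repeated windows in Pparg and Csf1r are included in these member counts. The median difference of OVA-exposed minus saline was 0.12 percentage points over the 76 member windows and 0.765 over all tested windows. Single member windows ranged from -14.1 to 14.9 percentage points.

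**Figure D1:**
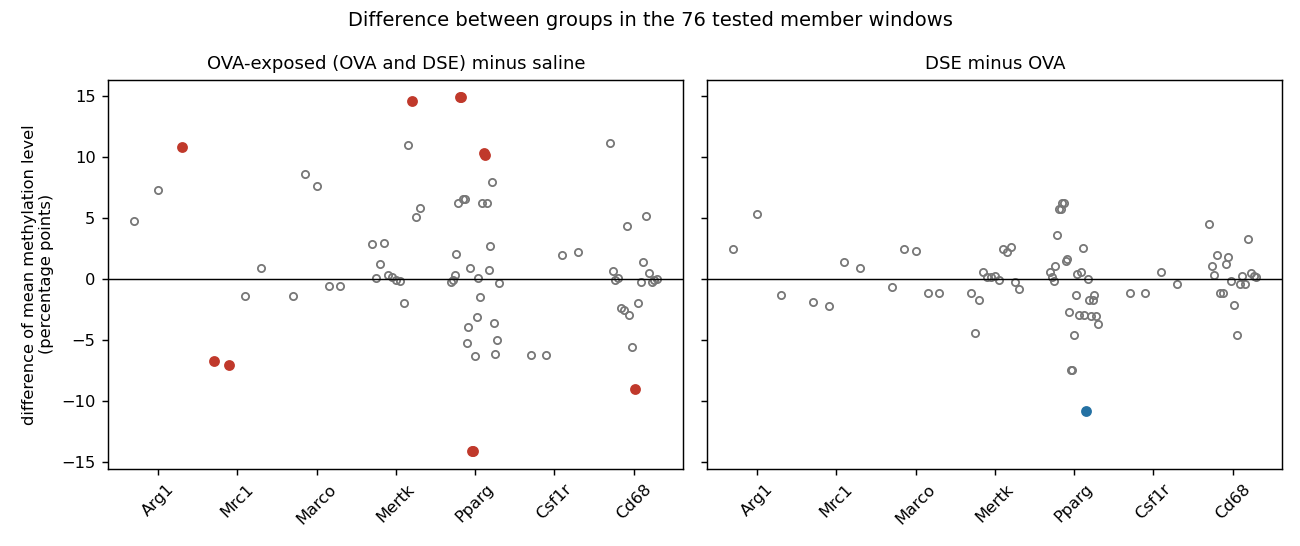
Difference of mean methylation level in percentage points for each of the 76 tested member windows, in genome order within each gene. Left, OVA-exposed minus saline, filled where limma called the window (6 higher, 5 lower); right, DSE minus OVA, filled where the window passed the DMR thresholds (1, in Pparg). Open points did not pass.

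Promoter means of cell type marker lists are given beside these results. The pan-leukocyte list (Ptprc, Laptm5, Coro1a, Vav1 and Itgb2) holds genes that macrophages also express. All of its 5 promoter means but that of Coro1a, thus 4, were lower in all 7 OVA-exposed mice than in all saline mice. The list mean was 53.2 to 54.4% in saline, 39.1 to 44.7% in OVA and 40.4 to 44.1% in DSE-treated mice. The lists also cover eosinophils, neutrophils, T and B cells, alveolar type 1 and type 2 cells, club cells and endothelium. Over all lists, 31 of 47 markers had a tested promoter. Of these, 5 were lower without overlap (Cd4 besides the 4 of the pan-leukocyte list) and 1 was higher (Tek, of endothelium). Of all promoter means, 4.31% were lower and 11.6% higher. The part of the cell mixture in the member results was not tested.

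Arg1 encodes arginase 1, which turns arginine into ornithine and urea and is a hallmark of alternative activation. Its 3 windows all lay around the start site on chromosome 10, and 2 of them contained it. The window centred on it (chr10:24927001-24928000, minus strand, exon 1, intron 1 and the bases upstream) rose. Methylation there was 22.3, 19.5 and 21.9% in the saline mice, 29.2, 32.3 and 36.8% in the OVA mice and 24.5, 34.9, 32.7 and 33.6% in the DSE-treated mice.

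No OVA-exposed mouse overlapped the saline mice, although DSE-treated mouse 1 lay closest to them. The group means were 21.2% ± 1.5 (SD, n = 3), 32.7% ± 3.8 (n = 3) and 31.4% ± 4.7 (n = 4), and the log2 ratio was higher by 0.78 (SE 0.18) with a limma adjusted p of 0.0267. The window held 13 CpGs and at most 172 calls per mouse. The 95% Wilson interval of saline mouse 2, for example, ran from 13.4 to 27.6% (counting error only). Those of saline mouse 1, 16 to 30.2%, and DSE-treated mouse 1, 17.2 to 33.7%, overlapped widely. The separation of DSE-treated mouse 1 from the saline mice is thus within counting error. Toward the gene body the level rose in every group. The other window that contained the start, centred 469 bp past it, had 51.2, 55.8 and 61.1% and the window at 969 bp had 62.9, 66.4 and 68.9% in the saline, OVA and DSE groups, without a limma call. An uncharacterized gene model (Gm40616) overlaps these windows or lies within 1000 bp of them.

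Mrc1 encodes the mannose receptor CD206, which is carried by alveolar as well as alternatively activated macrophages. Its 4 windows lay together about 65 kb past the start on chromosome 2, at exon 15 of 30 and in intron 15. In the first window (chr2:14294001-14295000) the saline mice had 88.2, 87.6 and 88.0%, the OVA mice 81.7, 81.4 and 83.5% and the DSE-treated mice 79.3, 80.4, 81.6 and 79.8%.

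Every OVA-exposed mouse lay below every saline mouse, with means of 88.0% ± 0.31 in saline, 82.2% ± 1.1 in OVA and 80.3% ± 1.0 in DSE-treated mice. The log2 ratio fell by 0.75 (SE 0.11) with a limma adjusted p of 0.00803, which was the window still called without saline mouse 2, and 1105 to 2041 calls per mouse stood behind it. The next window (chr2:14294501-14295500) fell too, from 79.2% ± 0.78 to 73.3% ± 2.7 in OVA and 71.1% ± 1.1 in DSE-treated mice (limma adjusted p = 0.0246). Further into intron 15 the CpGs were dense and little methylated, at 15.0, 13.0 and 14.4% and at 10.5, 11.0 and 11.9%, with overlapping mice. The mean over the 4 gene-body windows was 48.2% ± 0.97 in saline, 44.9% ± 0.65 in OVA and 44.4% ± 1.1 in DSE-treated mice, with all 7 OVA-exposed mice lower.

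Among the 6 members with gene-body windows, Mrc1 was the only gene whose mean did not overlap between OVA-exposed and saline mice, so that 1 was lower and 0 higher, beside 5.33% and 15.8% of all genes measured. Of the 4 members with promoter windows (Arg1, Mertk, Pparg and Cd68), 0 promoter means were without overlap, beside the same 11.6% of all genes higher and 4.31% lower. Promoter means over several windows thus did not show the differences that single windows did.

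**Figure D2:**
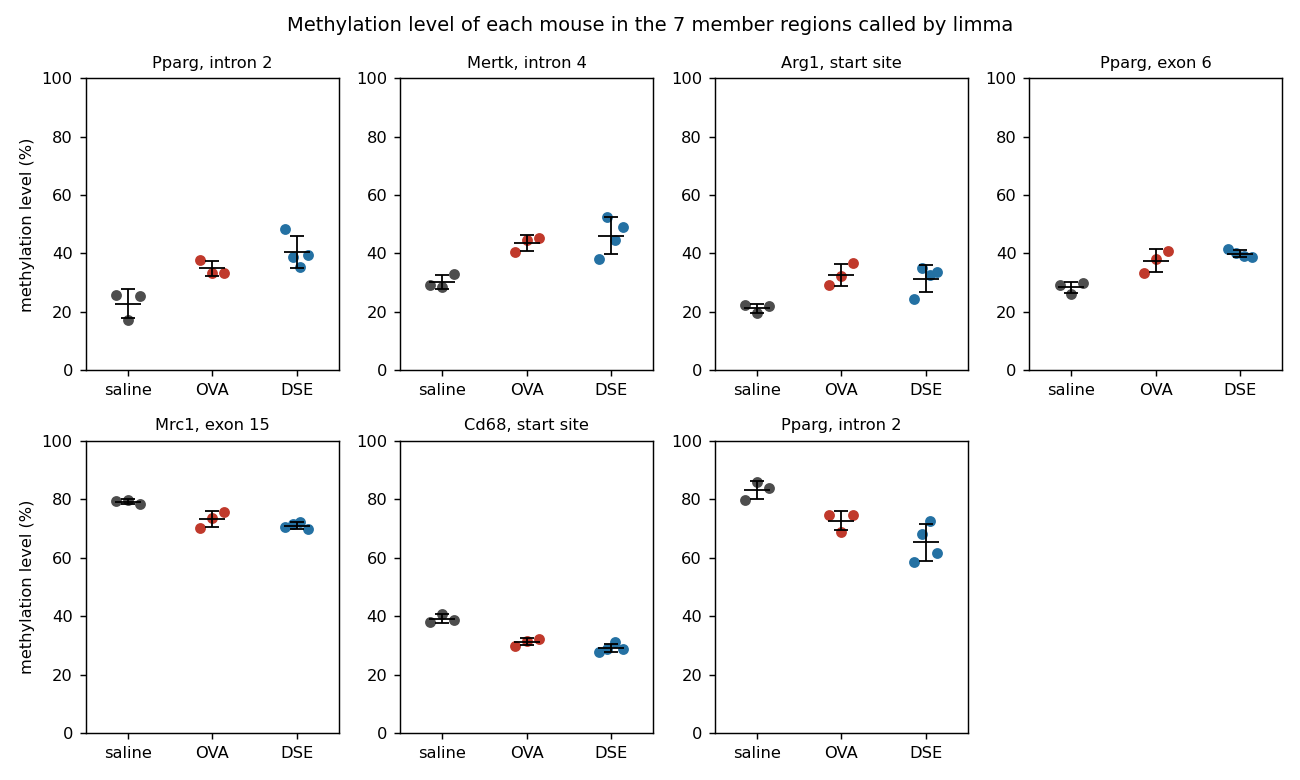
Methylation level (percent) of each mouse in the 7 regions called by limma, each shown by its window of largest difference; points are mice, the long tick is the group mean and the bars are 1 SD. All OVA and DSE-treated mice lie above the saline mice in the first 4 panels and below them in the last 3.

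Mertk encodes a receptor tyrosine kinase by which macrophages recognize and engulf dying cells. Its CpG island at the start (chr2:128698501-128699500, 52 CpGs, 1876 to 3245 calls) was almost unmethylated in every mouse, at 0.586 to 1.32%. The mean of the 4 promoter windows was 1.18% ± 0.12 in saline, 1.18% ± 0.098 in OVA and 1.28% ± 0.11 in DSE-treated mice.

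The change in Mertk lay 40.6 kb downstream, in intron 4 (chr2:128739001-128740000, 14 CpGs, 294 to 493 calls). Saline mice had 29.1, 28.6 and 33.1%, OVA mice 40.5, 44.7 and 45.4% and DSE-treated mice 38.0, 52.6, 44.7 and 49.1% there. All OVA and DSE-treated mice lay above the saline mice, while the OVA mice lay within the range of the more widely spread DSE-treated mice. The means were 30.3% ± 2.5, 43.5% ± 2.7 and 46.1% ± 6.3, and the log2 ratio was higher by 0.90 (SE 0.18) with a limma adjusted p of 0.0196. The window before it had 32.3, 42.2 and 44.4%, with no overlap of OVA-exposed and saline mice, but did not pass (limma adjusted p = 0.062), and the window before that, at exon 4, had 39.5, 36.3 and 38.8% with overlap.

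Pparg encodes the nuclear receptor PPARgamma, which alveolar macrophages need for their development and for lipid handling, and which has an alternative start for the Pparg2 transcript used mainly in fat. It held 29 of the 76 tested windows. The island at the first start was almost unmethylated (1.31, 1.17 and 1.34% in chr6:115360501-115361500), as in Mertk, and the level climbed to 14.9, 19.3 and 22.9% in the window that holds the start at position 115362349, without a call. Around the Pparg2 start the windows had 55.0, 61.1 and 74.2% in saline, 48.9, 56.3 and 76.4% in OVA and 50.4, 57.9 and 73.7% in DSE-treated mice, also without a call.

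In intron 2, 50.5 kb past the first start (chr6:115411001-115412000), saline mice had 25.7, 17.2 and 25.5%, OVA mice 37.9, 33.3 and 33.3% and DSE-treated mice 48.3, 38.9, 35.5 and 39.6%. This region rose by 0.96 (SE 0.20) on the log2 scale (limma adjusted p = 0.0189). Coverage was thin (29 to 72 calls), and the Wilson interval of saline mouse 2 spanned 7.60 to 34.6%.

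Still in intron 2 but 73.0 kb past the first start (chr6:115433501-115434500), the direction was the opposite. Saline mice had 79.8, 86.0 and 83.8%, OVA mice 74.6, 69.0 and 74.8% and DSE-treated mice 58.7, 68.2, 72.7 and 61.7%. All OVA-exposed mice were lower than the saline mice, the log2 ratio fell by 1.129 (SE 0.22) and the limma adjusted p was 0.0161. The DSE-treated mice lay lower on average than the OVA mice (65.3% ± 6.3 against 72.8% ± 3.3) but overlapped them. Calls per mouse were 218 to 253 in saline, 143 to 232 in OVA and 433 to 579 in DSE-treated mice.

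At exon 6 of 8, a coding exon 102 kb past the first start, methylation rose in both windows. The window chr6:115462501-115463500 (18 CpGs, 1534 to 2760 calls) had 29.3, 26.2 and 29.8% in saline, 33.3, 38.2 and 41.0% in OVA and 41.6, 40.1, 39.3 and 39.0% in DSE-treated mice. The 4 DSE-treated mice had an SD of 1.2 points there, against 5.4 and 6.3 in the 2 regions of intron 2. The log2 ratio was higher by 0.67 (SE 0.13) with a limma adjusted p of 0.018. Its neighbour (chr6:115463001-115464000) had means of 20.8% ± 2.2, 32.5% ± 2.7 and 29.5% ± 2.9 (limma adjusted p = 0.0162).

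**Figure D3:**
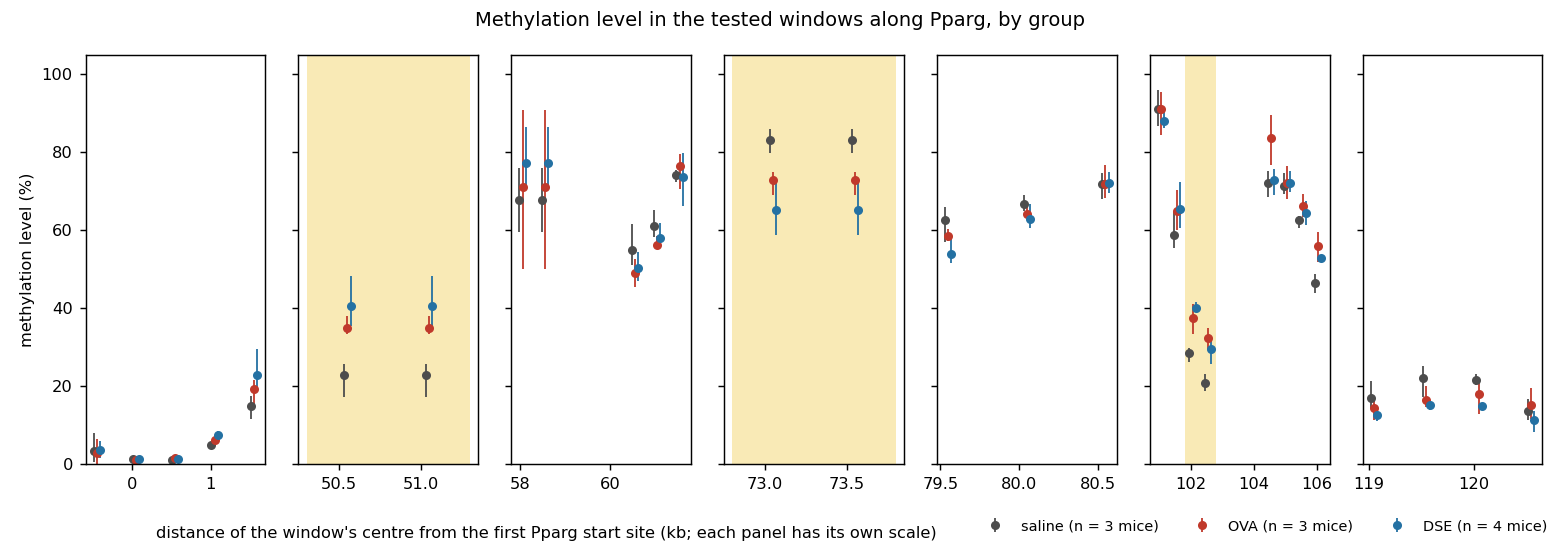
Methylation level (percent) in the 29 tested windows of Pparg against the distance of the window's centre from the first start site (kb; the 7 panels have their own scales and leave out stretches with no tested window). Points are group means, bars run from the lowest to the highest mouse, and yellow marks windows called by limma; saline lies lowest at 50.5 and 102 kb and highest at 73.0 kb.

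Cd68 lies on chromosome 11 between the housekeeping genes Mpdu1 and Eif4a1, whose islands fall in its flanks and were almost unmethylated (0.855 to 1.19% in the windows with the most CpGs on either side). The window over the start site and the bases upstream of it (chr11:69666001-69667000, minus strand) fell. It includes the last exon of Eif4a1. Saline mice had 37.9, 40.9 and 38.8%, OVA mice 29.8, 31.6 and 32.2% and DSE-treated mice 27.9, 28.6, 31.0 and 28.8%. All OVA and DSE-treated mice lay below the saline mice and overlapped each other, with means of 39.2% ± 1.5, 31.2% ± 1.3 and 29.1% ± 1.4. The log2 ratio fell by 0.58 (SE 0.11) with a limma adjusted p of 0.0162, from 725 to 993 calls per mouse.

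The window centred 169 bp past the start (chr11:69665501-69666500) was also lower in all OVA-exposed mice than in the saline mice, at 50.4% ± 2.0, 44.9% ± 1.7 and 44.8% ± 0.68, but did not pass (limma adjusted p = 0.10). The promoter mean over 6 windows, 55.6% ± 1.6, 53.3% ± 0.70 and 52.6% ± 2.8, overlapped between groups. Outside the promoter, a window in intron 1 of Mpdu1 (chr11:69661001-69662000) had 31.6% ± 5.5, 40.4% ± 4.7 and 44.9% ± 12, with DSE-treated mouse 2 at 61.0%.

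**Figure D4:**
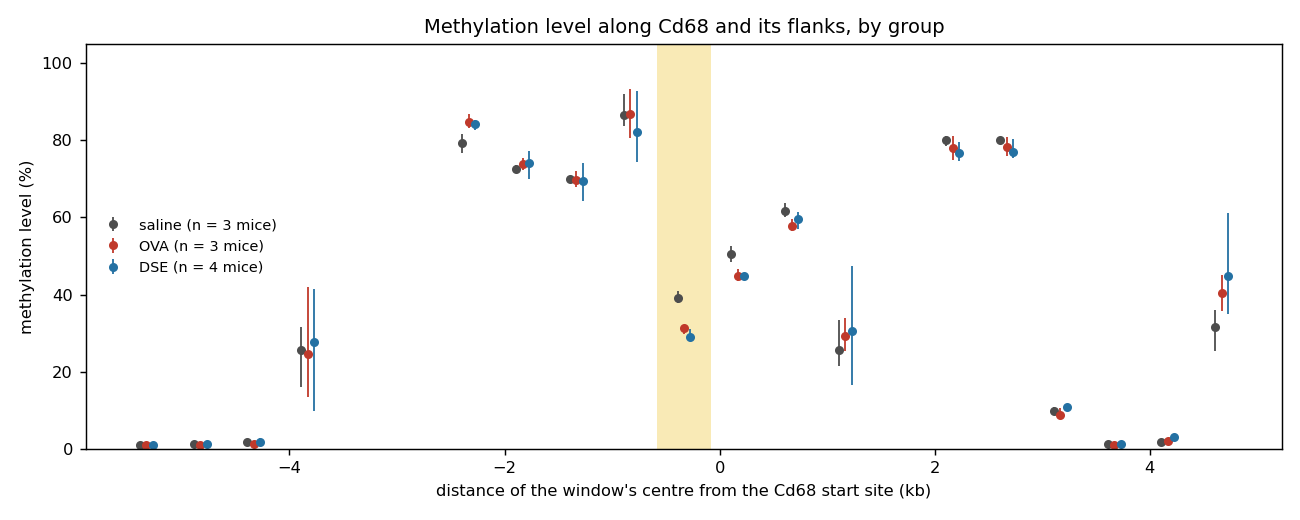
Methylation level (percent) in the 18 tested windows of Cd68 and its flanks against the distance of the window's centre from the start site (kb; negative is upstream). Points are group means, bars run from the lowest to the highest mouse, and yellow marks the window called by limma, where saline had 39.2% and the other groups 31.2 and 29.1%.

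Csf1r, which encodes the receptor for the macrophage growth factor CSF1, and Marco, a scavenger receptor of alveolar macrophages, had no window called by limma. At exon 11 of Csf1r (chr18:61118001-61119000) the saline mice had 61.3, 62.9 and 58.7%, the OVA mice 54.3, 56.9 and 54.7% and the DSE-treated mice 55.6, 51.0, 55.6 and 54.6%. All OVA-exposed mice were lower, by a mean of 5.70 points in the OVA group, and the limma adjusted p was 0.0833. In the flank downstream of Marco (chr1:120473001-120474000) the means were 48.8% ± 1.5, 56.2% ± 2.5 and 58.6% ± 6.9 (limma adjusted p = 0.133). The windows in intron 12 of Marco were nearly unmethylated, at 2.77, 2.77 and 1.61%.

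The comparisons of pairs of groups took from the study its cut-offs for differentially methylated regions (DMRs), a gap of 10 percentage points and an adjusted p of 0.01. They were applied here to pooled calls and a likelihood ratio test. In OVA vs. saline, 5 member windows were hyper methylated (6.58%) and 2 hypo methylated (2.63%), beside 4.83% and 2.6% of all windows. The hyper methylated windows were those named in Arg1, Mertk and exon 6 of Pparg, with a pooled difference of 11.6, 13.4 and 11.4 percentage points, and a further pair in intron 6 of Pparg. The hypo methylated windows were the pair with the same calls in intron 2 of Pparg, with -10.6 points.

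This test treats calls as independent and does not use the spread between mice. With that spread included, an F test and limma on the same 6 mice called 0 of 76 member windows, although 23 and 18 had an unadjusted p under 0.05, and both called 0 of all windows. OVA against saline in the limma fit of all 10 mice, which estimates the spread from the 3 groups together and sets no minimum difference, called 2 member windows and 15771 of all windows. Without OVA mouse 3, 4 member windows passed in place of 7. The mice of the OVA and saline groups did not overlap in 13 windows that were higher and 11 that were lower in OVA, beside 27.0% of all windows in either direction.

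In DSE vs. saline, 8 member windows were hyper and 3 hypo methylated (10.5% and 3.95%), beside 5.02% and 3.09% of all windows. Besides windows in Arg1, Mertk, Pparg and the flanks of Marco and Cd68, they included the Cd68 promoter window with -10.2 points. The repeated windows in intron 2 of Pparg are counted here too. Limma on the same mice called 7 of the 11, beside 16884 of all windows. The F test called 0 member windows (25 with an unadjusted p under 0.05) and 0 of all windows. Without saline mouse 2, 7 member windows passed the DMR thresholds, and 6 of these were among the 11.

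The comparison of DSE vs. OVA asked what the extract changed in induced mice. It gave 0 hyper methylated and 1 hypo methylated member window, beside 0.888% and 0.699% of all windows. The window lay in intron 6 of Pparg (chr6:115465001-115466000, 3 CpGs). Calls per mouse were 124 to 186 in saline, 77 to 113 in OVA and 248 to 282 in DSE-treated mice, so depth differed between the groups compared. Methylation was 72.4, 68.5 and 75.3% in saline, 76.6, 85.0 and 89.6% in OVA and 69.1, 75.5, 75.7 and 71.4% in DSE-treated mice. OVA mice lay above both other groups there. The pooled difference was 11.9 points in OVA vs. saline (adjusted p = 0.000489 by the likelihood ratio test) and -11.6 points in DSE vs. OVA (adjusted p = 0.000391).

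That call was lost without OVA mouse 3, the highest of the group, with -8.67 points and an adjusted p of 0.0543. In DSE vs. OVA, the F test and limma called 0 of 76 windows, with 2 each at an unadjusted p under 0.05. Over all windows the F test called 0 and limma called 329. With so few calls, the 0 of 76 does not set the member windows apart. A neighbour in intron 6 (chr6:115466501-115467500) was hyper methylated in OVA vs. saline, at 46.6% ± 2.4 against 56.0% ± 3.9, and had 53.0% ± 0.47 in DSE-treated mice.

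DSE-treated and OVA mice did not overlap in 1 member window that was higher and 1 that was lower in DSE-treated mice, beside 10.3% of all windows in either direction. At the 7 regions called in the OVA-exposed mice, DSE minus OVA was -1.31 points at the Arg1 start, -2.20 in Mrc1, 2.58 in Mertk, 5.70, -7.47 and 2.51 in the 3 regions of Pparg and -2.15 in Cd68, and 0 of these 7 windows passed the DMR thresholds in DSE vs. OVA. Whether DSE and OVA levels are alike was not shown by this. The median difference over the 76 member windows was 0.058 points.

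Beyond the 10 genes, 57 further macrophage genes were listed (transcription factors, receptors and ligands, phagocytosis, alveolar, alternatively activated and monocyte genes), and 53 had tested windows. Of their 762 windows, 43 in 17 genes rose and 54 in 19 genes fell in OVA-exposed mice (5.64% and 7.09%) by limma, beside the 5.51% and 3.21% of all windows given above. Stat6, the transcription factor downstream of the interleukin-4 receptor, had the window chr10:127653501-127654500 in its intron 11, which rose from 24.4% ± 4.1 to 45.7% ± 9.3 in OVA and 47.9% ± 2.6 in DSE-treated mice (limma adjusted p = 0.00905). Spi1, which encodes PU.1, rose from 20.1% ± 4.6 to 42.8% ± 11 and 42.9% ± 2.4 in chr2:91115501-91116500 at its exon 5 (limma adjusted p = 0.0111). Of the 37 tested windows of Spi1, however, 3 rose and 11 fell.

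C1qa, which encodes a chain of complement C1q made by tissue macrophages, rose at its start (chr4:136898001-136899000) from 20.1% ± 1.5 to 40.7% ± 4.5 and 38.3% ± 4.5 (limma adjusted p = 0.00619). Itgax, which encodes CD11c, a surface marker of alveolar macrophages and dendritic cells, fell at its exons 6 to 8 (chr7:128133001-128134000) from 60.1% ± 3.8 to 40.2% ± 8.7 and 41.0% ± 1.2 (limma adjusted p = 0.0122). These 4 genes were chosen for the size of their difference. In the 4 windows the OVA-exposed and saline mice did not overlap, and their differences of 19.4 to 22.7 points in size were larger than the largest among the 10 genes, 14.9 points.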

How the data were processed

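SureSelect Methyl-seq libraries were made from lung DNA: probes of RNA enrich chosen genomic regions, and bisulfite converts cytosines without methylation. The authors mapped the reads to mm10 (GRCm38) and deposited whole-number counts without normalization, namely the CpG calls of each mouse per window and how many were methylated and unmethylated. According to the processing notes they used cutadapt 1.10, Bismark 0.19.0 and methylKit 1.0.0; the versions in the study's methods differ. Reads of BALB/c mice were mapped to a C57BL/6 reference. All deposited windows had at least 10 calls per mouse, and no column of per-sample values was left unmapped.

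Groups came from the sample titles. Herb was taken as DSE, since the study names no other herb. The members and gene lists were chosen with earlier results of these data known. A window was tested where all 10 mice had 20 or more calls. Pairs of groups were compared by logistic models with a likelihood ratio test (numpy 2.4.6, scipy 1.17.1), and OVA-exposed against saline mice by limma 3.58.1 in R 4.3.3 on log2((methylated + 1)/(unmethylated + 1)) over all 10 mice. Adjusted p-values are Benjamini-Hochberg values over all 421759 tested windows. Promoter means averaged the windows within 1000 bp of a RefSeq start, and gene-body means the other windows of the gene. No means were tested.

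The windows named were, per gene, the window nearest a start, the window with the largest OVA minus saline difference, and each region that passed a threshold, given by its window of largest difference. In the wider list the 4 genes with the largest differences were named. Scripts were tested on simulated calls. The mean chi-square of calls per window between mice of a group was 2.64 to 3.76, so no pair of libraries held the same calls. Deviations of same-numbered mice from their group means had correlations of -0.027 to 0.078. The titles do not say whether the numbers pair the mice. With 3 or 4 mice per group these correlations cannot exclude a pairing. Alternatives were other minimum numbers of calls, tests, thresholds, pseudocounts, a replicate block and each mouse left out; equal medians and each exposed group alone were added after seeing the data. Histology and RNA-seq were not used here.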

Additional observations from a re-analysis of the deposited data

Results flagged for a closer look

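Among 28 quantities (named windows and gene means), 3 had a DSE-treated mouse far from the other 3 by Dixon's ratio of the gap to the range, past its 95% critical value for 4 samples; chance flags about 1 in 20 groups. In the window of Pparg intron 6 at chr6:115466501-115467500, DSE-treated mouse 1 had 53.7% and the others 52.7 to 52.8%, a ratio of 0.899. The Mertk promoter mean was 1.12% in DSE-treated mouse 3 and 1.33 to 1.36% in the others, a ratio of 0.885. The Mrc1 gene-body mean was 46.0% in DSE-treated mouse 3 and 43.7 to 44.1% in the others, a ratio of 0.833. In each case the gap was under 2 percentage points.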

How the results depend on the processing

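Counts of member windows past the DMR thresholds were 7 for OVA vs. saline, 1 for DSE vs. OVA and 11 for DSE vs. saline. An F test with overdispersion gave 0, 0 and 0, limma on M-values gave 0, 0 and 7, and a minimum difference of 20 percentage points gave 0, 0 and 0. Non-overlapping windows gave 7 in DSE vs. saline, where 42 in place of 76 windows were tested. The other alternatives stayed within 1.5 times these counts, apart from single mice left out, which gave 4 to 9, 0 to 1 and 7 to 13. The limma count of OVA-exposed vs. saline windows, 11, was 1 to 14 with a mouse left out, 2 for OVA against saline alone and 8 to 16 under the other alternatives apart from the block. With a replicate block the counts were 7, 1, 10 and, for OVA-exposed vs. saline, 3. Whether the replicate numbers pair the mice is not known. Of 376 values of single regions under the alternatives, 0 changed direction, 280 kept their side of the threshold and 96 lost it. Of 48 values of gene means, 8 moved by more than the spread between mice. Depth limits the sparse windows most: in the thinnest called region, at 29 calls, the interval of a mouse spanned 7.60 to 34.6%.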

Other observations

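Among the further macrophage genes, the transcription factors of the lineage held 239 tested windows, of which 17 in 6 genes were higher and 25 in 5 genes were lower in OVA-exposed mice by limma at an adjusted p under 0.05 (7.11% and 10.5%, beside 5.51% and 3.21% of all windows). Genes of phagocytosis had 11 higher and 11 lower windows of 171 (6.43% each). Receptors and ligands had 10 and 8 of 171 (5.85% and 4.68%), alveolar macrophage genes 3 and 4 of 69 (4.35% and 5.80%), alternatively activated genes 2 and 4 of 79 (2.53% and 5.06%), and monocyte genes 0 and 2 of 33 (6.06% lower). The eosinophil promoter list (4 of 5 markers measured) had a mean of 44.5% in saline, 39.2% in OVA and 39.0% in DSE-treated mice, with 0 genes free of overlap. The T cell list (6 of 8) had 75.6, 71.9 and 72.6%, and the endothelial list (3 of 5) had 25.8, 30.9 and 28.0%. The neutrophil marker measured, Csf3r, had 53.1, 47.6 and 54.0%. The B cell list (4 of 6) had 45.4, 46.3 and 47.1%, alveolar type 1 cells (4 of 4) 34.6, 36.0 and 34.3%, alveolar type 2 cells (3 of 5) 47.7, 46.8 and 45.8%, and the club cell marker Cyp2f2 57.9, 57.4 and 58.7%.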
